A study of Rattus norvegicus with 6 samples.

Results

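The liver genes of vitamin A handling described here are Cyp26b1, Cyp26a1, Lrat, Rbp4, Rara, Rarb, Rdh16 and Dhrs3, 8 genes taken from a comparison of PCN-treated and control rats. They were picked from the readout itself, because Cyp26b1 and Lrat were lower with PCN, and the other 6 were added as genes of the same pathway. A probe belonged to a gene if its transcript accession matched that gene in RefSeq. This found 9 probes for 7 of the 8 genes, among 16389 genes and features tested on the arrays. No probe matched Rarb by this rule, so it has no value here. Since the contrast of PCN and control chose the genes, its values for them are given as a description, with no p-value.

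Livers came from 6 male Wistar Hannover rats, bought at 4 weeks of age and held in quarantine for 1 week. The 3 control rats received the vehicle, corn oil, by gavage for 7 days. The 3 PCN rats received pregnenolone-16α-carbonitrile at 100 mg/kg per day on the same schedule. PCN, made by synthesis from a steroid, is a standard agonist of the pregnane X receptor in rodents, a nuclear receptor that senses foreign compounds. Whole-liver RNA was measured on 1-colour Agilent arrays (Cy3 dye), 1 array per rat.

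Vitamin A reaches the liver as retinyl ester, is released to the blood as retinol bound to a carrier protein, and is stored as retinyl ester in stellate cells, which lie beside the liver sinusoids. Retinol is oxidised reversibly to retinal and then irreversibly to retinoic acid, which binds the nuclear receptors RAR in pairs with RXR and so controls transcription. P450 enzymes of the Cyp26 family hydroxylate retinoic acid for clearance, and Cyp26a1 is a textbook target of the RAR receptors.

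RefSeq promoter sequences (build GRCr8) matched 7 of the 8 genes, all but Rdh16. The 250 bases before the transcription start are shown for the 4 genes with array groups that did not overlap, because they were the genes on which the groups stood apart. They run 5′ to 3′ in the direction of the gene. Capitals mark the half-sites of a nuclear receptor repeat and occur in Cyp26a1 alone of these 4.
Lrat (chr2:170571213-170571462, minus strand): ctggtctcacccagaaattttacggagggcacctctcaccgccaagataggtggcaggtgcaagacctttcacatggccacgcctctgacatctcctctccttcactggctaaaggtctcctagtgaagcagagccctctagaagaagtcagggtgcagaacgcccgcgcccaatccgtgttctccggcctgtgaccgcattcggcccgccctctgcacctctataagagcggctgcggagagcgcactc
Cyp26b1 (chr4:118616177-118616426, minus strand): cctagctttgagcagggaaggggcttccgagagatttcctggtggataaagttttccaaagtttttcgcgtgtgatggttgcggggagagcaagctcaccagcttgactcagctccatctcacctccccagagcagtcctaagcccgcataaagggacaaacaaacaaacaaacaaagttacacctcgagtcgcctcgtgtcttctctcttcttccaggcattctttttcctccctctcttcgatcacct
Cyp26a1 (chr1:244883572-244883821, plus strand): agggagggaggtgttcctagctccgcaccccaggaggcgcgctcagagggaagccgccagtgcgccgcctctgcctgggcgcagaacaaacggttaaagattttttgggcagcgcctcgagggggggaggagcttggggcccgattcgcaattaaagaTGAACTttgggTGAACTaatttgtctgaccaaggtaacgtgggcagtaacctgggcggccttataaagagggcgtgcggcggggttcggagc
Dhrs3 (chr5:162031603-162031852, plus strand): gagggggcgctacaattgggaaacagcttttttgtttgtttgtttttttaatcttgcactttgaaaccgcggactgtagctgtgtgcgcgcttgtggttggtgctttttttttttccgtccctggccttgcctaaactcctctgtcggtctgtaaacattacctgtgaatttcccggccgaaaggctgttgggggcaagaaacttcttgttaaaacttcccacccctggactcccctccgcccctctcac

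The search covered both strands from 250 bases before to 50 after the start, for pairs of a nuclear receptor half-site. The half-site could read AGGTCA, the common form, or be one of its variants, spelled AGTTCA or, with another first base, GGTTCA, or else GGGTCA. Pairs could stand as direct repeats with 1 to 5 bases between them, or as everted repeats with 6 bases between them. RAR and RXR pairs are known to bind direct repeats with a spacer of 5, and the pregnane X receptor direct repeats with a spacer of 3 or 4 and everted repeats with a spacer of 6. Cyp26a1 held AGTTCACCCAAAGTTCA on the minus strand, a direct repeat with a spacer of 5, at −92 to −76 from the start; the capitals above show it as its complement on the plus strand. Rarb held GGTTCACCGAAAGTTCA on the plus strand at 25 to 41 past the start, shown here with its flanks because its spacing is the same.
Rarb (chr15:11336412-11336436, plus strand): gaagGGTTCAccgaaAGTTCActcg

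A direct repeat with a spacer of 5 occurred in 0.382% of 33469 RefSeq promoters of the same length, and any of the 6 repeat types in 0.98%. The windows of Cyp26b1, Lrat, Dhrs3, Rbp4 and Rara held no match, which says only that these letters are not in those windows. A match is a property of the sequence and was not measured as binding.

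Levels are given as the log2 of the processed signal over the 75th percentile of that array's signals, so that 0 is the 75th percentile and 1 unit is a doubling. This scale compares arrays for 1 probe and does not rank genes. That percentile was a signal of 633 to 758 in controls and 488 to 627 with PCN, with 0 saturated spots. The share of spots well above background was 65.5% to 68.9% on control arrays and 61.6% to 65.8% on PCN arrays. PCN replicate 3 was the lowest of all arrays on both measures. Cyp3a23-3a1, the P450 known to be induced by PCN, was 19.8-fold higher in the PCN group (adjusted p = 1.69e-04), so this check did not go against the labels. All 12 hepatocyte markers examined, among them Alb and Apoa1, were well above background on all 6 arrays. All controls shared 1 slide, and all PCN samples shared another, so the effects of slide and of treatment cannot be told apart for any value below.

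Lrat encodes lecithin retinol acyltransferase, which esterifies retinol for storage. Its brighter probe read 0.77, 0.95 and 0.61 in control rats 1 to 3 and −0.29, −0.35 and −1.04 in PCN rats 1 to 3. All PCN arrays lay below all control arrays, and PCN replicate 3 was the lowest. The group means were 0.78 ± 0.17 and −0.56 ± 0.42 (SD, n = 3 per group), a log2 difference of −1.33 ± 0.22 (SE), which is 2.52-fold lower with PCN. The dimmer probe read −4.46, −3.59 and −4.27 in controls and −5.32, −5.96 and −6.01 with PCN, again without overlap. Its difference was −1.66 ± 0.28 (SE), or 3.16-fold. This probe was well above background on all 3 control arrays but, of the PCN arrays, only on array 1, by 1 of 2 spots. Over the 6 arrays, which share the group difference, the Lrat probes correlated at r = 0.942.

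Cyp26b1 encodes the retinoic acid hydroxylase that is the Cyp26 form better known from tissues outside the liver parenchyma. It read −2.26, −2.64 and −3.75 in control rats 1 to 3 and −5.79, −6.61 and −7.24 in PCN rats 1 to 3. The lowest control array, replicate 3, still lay well above the highest PCN array. The probe is printed at 10 spots on each array. All 10 were well above background on each control array. On PCN arrays 1, 2 and 3 this held for 2, 1 and 0 of the 10 spots, so no PCN array had the gene well above background. After outlier spots were dropped, 9, 9 and 10 spots were kept on these arrays. The measured difference was −3.66 ± 0.48 (SE, n = 3 per group), or 12.7-fold. Against a floor, the PCN level was 10.3-fold lower. This is not a lower limit, because other treatments of weak signals gave smaller differences (next paragraph). For each PCN array that floor is the lowest signal among probes well above background, or the measured Cyp26b1 signal where this is higher.

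The size of the Cyp26b1 difference depends on how weak signals are treated. It was −1.01 with normexp background correction and an offset of 50, and −2.70 in the authors' deposited table after adding 0.01, while the other alternatives tried lay between −4.10 and −3.32. All 16 alternatives that gave a value had it lower with PCN.

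Cyp26a1, the retinoic acid hydroxylase with the repeat shown above, went the other way. It read −2.41, −3.54 and −3.14 in control rats 1 to 3 and −1.21, −0.27 and −1.19 in PCN rats 1 to 3. Every PCN array lay above every control array, with PCN replicate 2 the highest. The means were −3.03 ± 0.57 and −0.89 ± 0.54 (SD, n = 3 per group), a difference of 2.14 ± 0.36 (SE), or 4.41-fold higher with PCN. The probe was well above background on all 6 arrays, and the difference lay between 1.55 and 2.45 over 17 alternatives. Cyp26a1 and Cyp26b1 thus stood on opposite sides in the same livers.

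Dhrs3 encodes a reductase that turns retinal back into retinol. Its arrays were close together within each group, at 2.26, 2.20 and 2.19 in controls and 2.79, 2.83 and 2.97 with PCN. The groups did not overlap, and the difference was 0.65 ± 0.10 (SE, n = 3 per group), or 1.57-fold higher with PCN. The pooled SD within groups was 0.07, lower than that of most tested genes (percentile 6.90, where the median gene had 0.17). The difference ranged from 0.33 under spike-in scaling to 0.86 under median scaling.

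Rdh16 encodes a dehydrogenase that oxidises retinol to retinal. Its brighter probe read 1.53, 0.25 and 1.15 in controls and 0.77, 0.18 and 2.58 with PCN. The groups overlapped fully, with PCN replicate 3 the highest and PCN replicate 2 the lowest of all arrays. The dimmer probe read −1.89, −2.90 and −2.43 in controls and −2.05, −2.93 and −1.06 with PCN, with the same arrays at the ends, and its difference was 0.40 ± 0.48 (SE). The brighter probe gave 0.20 ± 0.63 (SE), which turned to −0.50 without PCN replicate 3, to −0.16 without control replicate 2 and to −0.12 under spike-in scaling. The pooled SD within groups was 1.00, at percentile 99.3 of all tested genes. No direction can be read from these arrays.

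Rbp4 encodes the plasma carrier of retinol. It read 8.92, 8.68 and 8.65 in controls and 8.68, 8.55 and 9.02 with PCN, so that the groups overlapped. The difference was 0.00 ± 0.15 (SE) and lay between −0.32 and 0.21 over 17 alternatives. Rara encodes the retinoic acid receptor alpha. It read −0.11, −0.30 and 0.04 in controls and 0.08, −0.05 and 0.38 with PCN, with overlap between the groups. Its difference of 0.26 ± 0.15 (SE) turned to −0.07 under spike-in scaling.

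**Figure D1:**
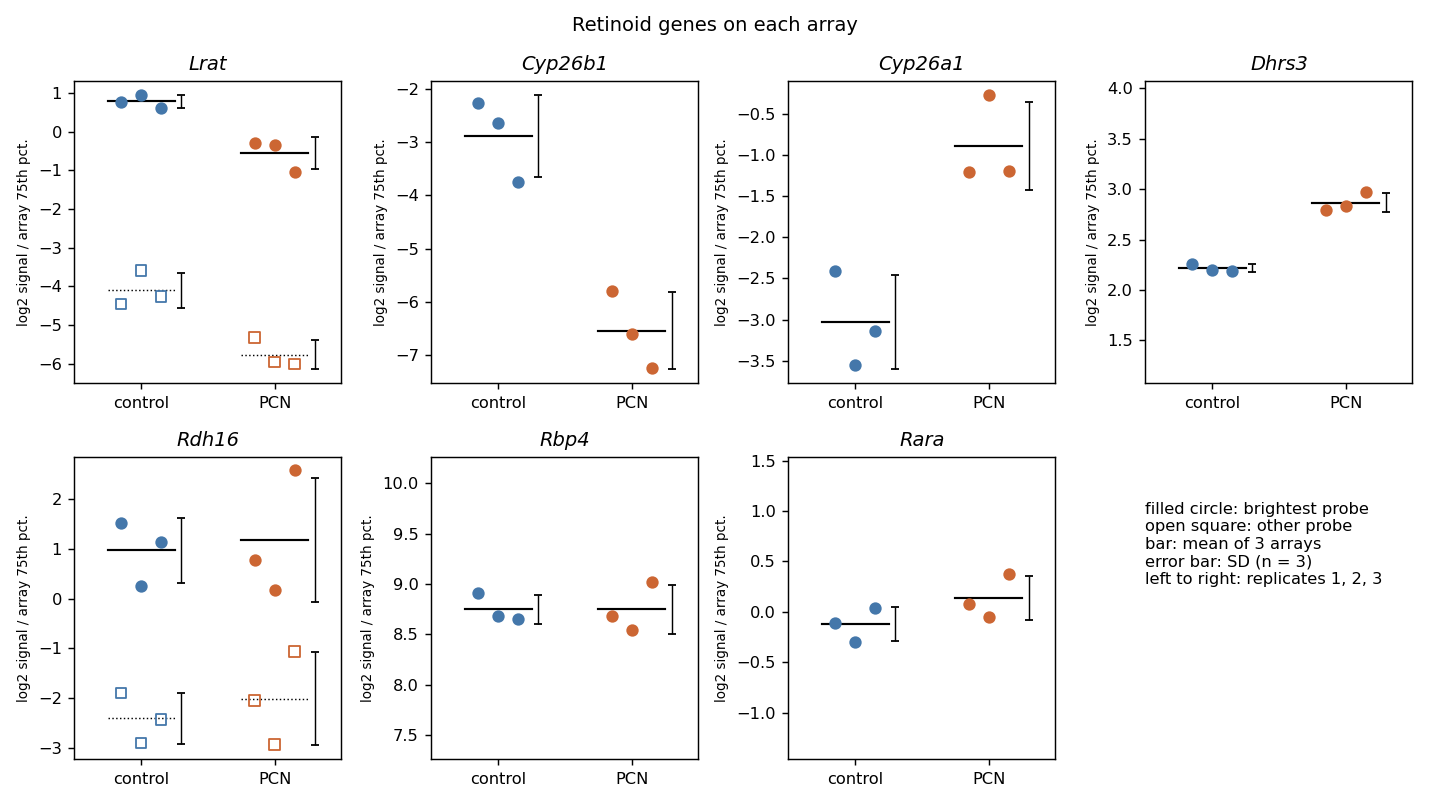
Level of each retinoid gene on each array, as log2 processed signal over the array's 75th percentile, with the mean and SD of 3 arrays per group; the axis of each panel has its own range. Lrat (both probes) and Cyp26b1 are lower on every PCN array, Cyp26a1 and Dhrs3 are higher on every PCN array, and Rdh16, Rbp4 and Rara overlap.

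All 7 genes with a probe entered the fit across the array. The fit placed 4 of them past its threshold (adjusted p under 0.05, limma), 2 higher and 2 lower with PCN, beside 19.9% of all tested genes (4.37% higher, 15.5% lower). In the same 4 the arrays of the groups did not overlap, beside 41.4% of all tested genes (14.7% higher, 26.7% lower). Nothing is read from these counts, because the contrast chose the genes. The median log2 difference of all tested genes was −0.06. It was 0.14 under median scaling and −0.39 under scaling to the E1A spike-in controls, so the differences above also depend on the scaling.

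The genes with array patterns most like Cyp26b1, by Pearson correlation over the 6 arrays among 10037 other genes with a symbol, were Ces5a (r = 0.998), Ppp1r9b (0.996), Apol3l1 (0.994), Kcnh1 (0.994) and RT1-N2 (0.993). Ces5a is a carboxylesterase and Kcnh1 a potassium channel, and their log2 differences were −0.80 and −2.23. For Lrat they were Ccnd3 (0.998), Slc1a7 (0.996), Rundc3a (0.995), Gpr173 (0.995) and Ttll13 (0.994). Ccnd3, a D-type cyclin, was lower by −0.53 on the log2 scale. In all, 199 genes had r above 0.95 with Cyp26b1 and 155 with Lrat. These correlations rest on 6 arrays that share the group difference and are given as a description. Kcnh1, Gpr173 and Ttll13 had PCN means of −6.29, −6.54 and −6.55, near background. On PCN arrays the lowest level well above background was −6.91 to −6.35.

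The rest of the pathway was examined through 5 lists of genes by role, of which 61 genes were tested. The fit called 8 of these 61 (13.1%), 1 higher and 7 lower, beside 19.9% of all tested genes, so the share called was not above the background. Their median was −0.16 against −0.06 for all tested genes. The split was 2 higher and 6 lower with quantile normalization or cyclic loess, 5 and 7 with median scaling, and 1 and 27 with spike-in scaling. The genes named below were called in the fit only where a verb of change is used.

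Among genes of retinoid transport and storage, 0 of 19 rose and 2 fell, with a median of −0.20. Scarb1, the HDL receptor that also takes up carotenoids, fell by 1.23 ± 0.12 on the log2 scale (SE, adjusted p = 1.42e-03), and its other probe gave −0.77. Cd36, a fatty acid transporter, fell by 1.00 ± 0.16 (adjusted p = 7.84e-03), with −0.75 at its other probe. Ttr, the plasma partner of Rbp4, gave 0.01 ± 0.16, and Dgat1, which can also esterify retinol, 0.05 ± 0.12 (adjusted p = 0.986 and 0.792). Stra6l, a liver receptor for Rbp4, gave 0.25 ± 0.11 (adjusted p = 0.169). Stra6, the receptor for Rbp4 in other tissues, was well above background on 2 control arrays and on no PCN array, and was not tested.

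Among 20 tested enzymes that interconvert retinol, retinal and retinoic acid, 1 rose and 2 fell, with a median of −0.12. Aldh1a1, which oxidises retinal to retinoic acid, rose 2.62-fold, by 1.39 ± 0.22 (adjusted p = 7.61e-03), from 4.67 in controls to 6.06 with PCN. Rdh12 fell by 1.14 ± 0.21 and Rdh8 by 0.90 ± 0.12 (adjusted p = 0.0126 and 5.07e-03). Both are retinal reductases best known from the photoreceptor cells of the eye. The call for Rdh8 ended with normexp (adjusted p = 0.0546). Aldh8a1 gave 0.18 ± 0.16, Rdh10, an early retinol dehydrogenase, 0.24 ± 0.12, Adh4 −0.31 ± 0.60 and Adh1c −0.29 ± 0.23 (adjusted p = 0.491, 0.202, 0.756 and 0.419). Aldh1a2, the main retinoic acid synthase of the embryo, was well above background on 0 arrays.

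Of 5 tested genes that bind or clear retinoic acid, 0 rose and 1 fell, with a median of −0.19. Fabp5, a fatty acid binding protein that can carry retinoic acid to the receptor PPAR delta, fell by 1.05 ± 0.18 (adjusted p = 9.74e-03), from 2.62 to 1.58. The P450s Cyp2c22 and Cyp2c7, which can hydroxylate retinoic acid in rat liver, gave −0.19 ± 0.28 and −0.07 ± 0.10 (adjusted p = 0.672 for both), and the other Cyp2c7 probes gave −0.08 and −0.17. Crabp2 gave −0.16 ± 0.31 (adjusted p = 0.761), and Crabp1 was well above background on 0 arrays. Cyp26c1 had no probe by this match.

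Of 8 tested receptors and coregulators, 0 rose and 1 fell, with a median of −0.25. Ppard, which encodes PPAR delta, fell by 0.94 ± 0.18 (adjusted p = 0.0143), with −0.44 at its other probe. That call ended without control replicate 1 (adjusted p = 0.0525) and with normexp (adjusted p = 0.180, difference −0.24). Rxra, the main RXR of hepatocytes, gave 0.31 ± 0.13, Rxrb −0.09 ± 0.12 and Rxrg −0.56 ± 0.21 (adjusted p = 0.155, 0.630 and 0.114). Rarg gave −0.43 ± 0.16 at its brighter probe (adjusted p = 0.110) and −0.84 ± 0.10 at its dimmer one (adjusted p = 2.80e-03 over all probes), so its probes fell on different sides of the threshold.

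Among 9 tested genes listed as responsive to retinoic acid in other settings, 0 rose and 1 fell, with a median of 0.01. Bhlhe40, a transcriptional repressor, fell by 1.02 ± 0.23 (adjusted p = 0.0243). That call ended in 5 of 6 fits with 1 array left out, all but that without PCN replicate 3 (adjusted p up to 0.0773). It also ended with quantile normalization, cyclic loess and no filter on dim probes (adjusted p = 0.0795, 0.0865 and 0.0617), and with normexp (difference −0.19, adjusted p = 0.367). Tgm2, a transglutaminase, gave 0.22 ± 0.20 and Nrip1, a corepressor, 0.27 ± 0.16 (adjusted p = 0.492 and 0.276).

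**Figure D2:**
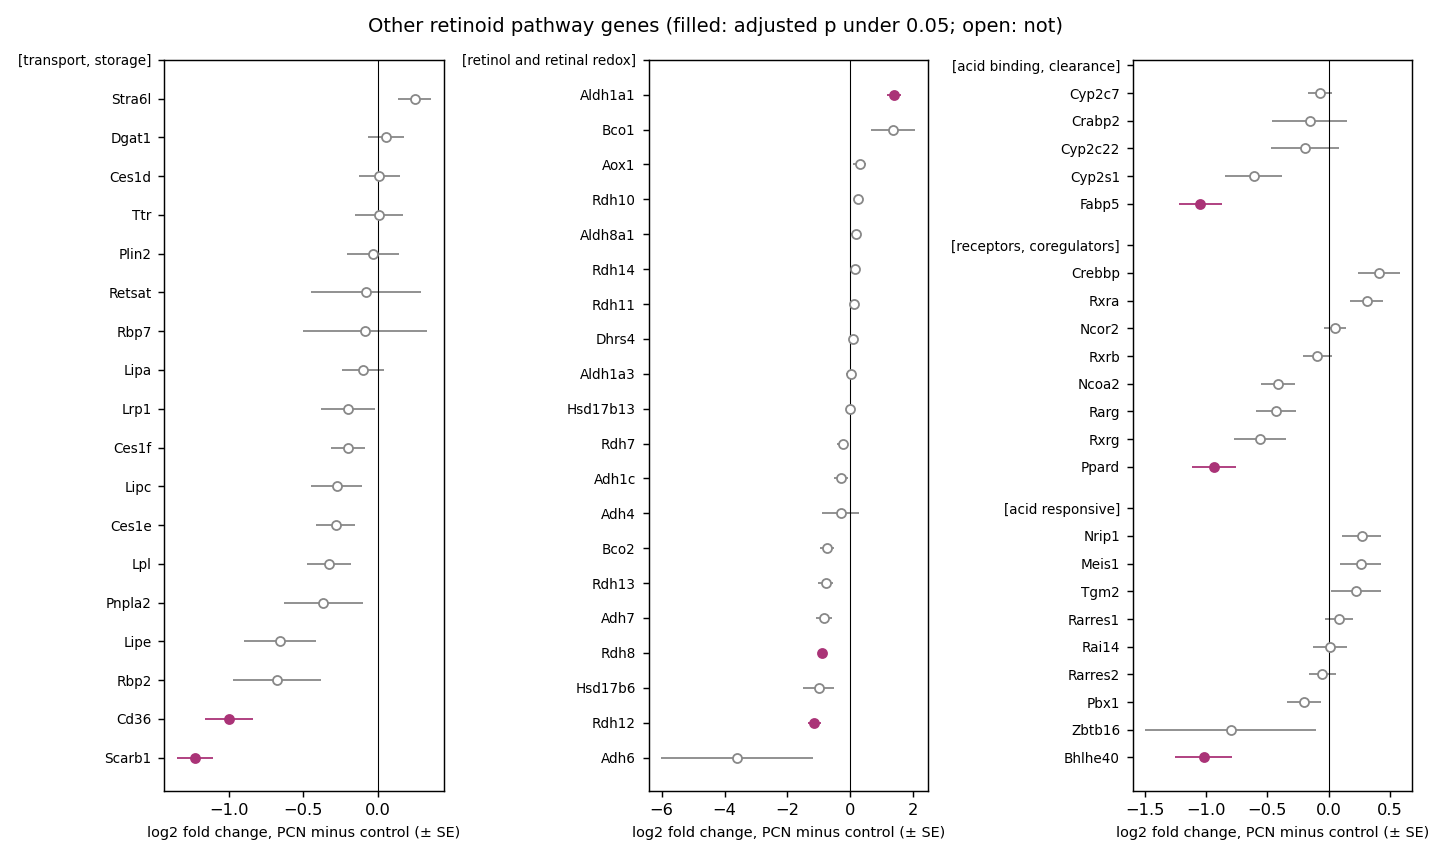
Log2 fold change (PCN minus control, ± SE, n = 3 per group) of the other tested retinoid pathway genes by role, with 1 of the 61 not shown; each column has its own axis range, and filled points passed the test. Aldh1a1 is the 1 filled point to the right of 0, and 7 filled points lie to its left, with Scarb1 at −1.23.

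Lrat is a known gene of stellate cells, so markers of this and other liver cells were set beside it. In whole liver, fewer cells of a type and less RNA per cell cannot be told apart. Of 20 tested stellate markers 1 rose and 1 fell (10% called, beside 19.9% of all tested genes), with a median of −0.10. Rgs5, a regulator of G protein signalling, rose by 0.96 ± 0.17 and Acta2, smooth muscle actin, fell by 0.74 ± 0.16 (adjusted p = 0.0119 and 0.0225). The call for Acta2 ended in 4 of 6 fits with 1 array left out (those without control 1, control 3, PCN 2 or PCN 3, with adjusted p up to 0.0755). It also ended with median scaling, with normexp and without the filter on dim probes (adjusted p = 0.0502, 0.0742 and 0.0618). Reln, Des and Pdgfrb, which mark stellate cells or their lineage and were named after their values were seen, gave −0.14 ± 0.15, −0.16 ± 0.13 and −0.38 ± 0.12 (adjusted p = 0.569, 0.436 and 0.0729). Others, named likewise and not called, lay on both sides of 0. Sparcl1, Lhx2 and Col3a1 gave 0.27 ± 0.20, 0.09 ± 0.20 and 0.09 ± 0.12, and Ngfr and Tcf21 −0.56 ± 0.29 and −0.50 ± 0.17. The summed signal of the 22 stellate markers with a probe ran from 31.8 to 35.8 times the 75th percentile on control arrays and from 30.5 to 34.8 on PCN arrays, overlapping. Such sums, here and below, weigh the brightest probes most. In this list these were Col3a1, Col1a2 and Ecm1 (control means 3.13, 3.00 and 2.96), so the sum says little of the dimmer markers. Of the 22 markers 0 were below background on every array. The tested markers ran from −0.74 to 0.96. This range leaves out Lum and Gfap, which were too dim to be tested. Lum read −6.32, −5.67 and −5.90 in controls and −7.55, −7.97 and −7.37 with PCN, without overlap. It was well above background on 2 control arrays and 0 PCN arrays. Gfap read −5.27, −4.79 and −5.56 in controls and −5.03, −5.96 and −5.15 with PCN, overlapping.

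Other cell types were measured in the same way. Of 9 endothelial markers Cdh5 fell (−0.49 ± 0.14, adjusted p = 0.0496), with a list median of −0.23. That call ended in all 6 fits with 1 array left out (adjusted p from 0.0622 to 0.134) and with each of quantile, median and cyclic loess scaling, normexp and no filter on dim probes (adjusted p from 0.0754 to 0.129). The list had summed signals of 28.2 to 31.2 in controls and 26.8 to 30.6 with PCN. Of 11 Kupffer cell markers 0 passed the limma test (3 had an unadjusted p under 0.05), with a median of −0.39, and their sums ran from 68.3 to 78.3 in controls and from 48.4 to 70.3 with PCN. All 11 differences were below 0, from −0.52 to −0.22. The dimmer probe of Csf1r, a receptor of macrophages named after its values were seen, gave −0.92 ± 0.16 (adjusted p = 0.0112 over all probes) against −0.40 at its brighter one. Of 4 tested T cell markers Cd3d and Lck fell, by 0.66 ± 0.12 and 0.67 ± 0.14 (adjusted p = 0.0108 and 0.0203), and for Lck 1 of the 3 PCN arrays was well above background. The other tested markers, Cd3g and Cd8a, gave −0.01 ± 0.25 and −0.49 ± 0.34 (adjusted p = 0.986 and 0.365). The call for Lck ended without control 2, control 3, PCN 2 or PCN 3 (adjusted p up to 0.0688), and with quantile normalization or no filter on dim probes (adjusted p = 0.0922 and 0.0598). With normexp its difference was 0.06 (adjusted p = 0.741). The summed signal of the 6 T cell markers was 0.587 to 0.742 in controls and 0.42 to 0.53 with PCN, without overlap. Cd3d was the brightest of these markers and weighs most in their sum, and Cd2 was well above background on 0 arrays. The part of T cells in the values of Lrat and Cyp26b1 was not tested. Of 12 hepatocyte markers Hnf4a, a transcription factor, rose by 0.63 ± 0.13 (adjusted p = 0.0160), with a list median of 0.01. That call ended without control replicate 3, with spike-in scaling and without the filter on dim probes (adjusted p = 0.0565, 0.122 and 0.0521). Cholangiocyte markers (4 tested) and red cell markers (5 tested) held 0 called genes by limma (1 and 0 with an unadjusted p under 0.05), with medians of 0.21 and 0.10. Cholangiocyte sums were 0.449 to 0.548 in controls and 0.581 to 0.682 with PCN, higher and also without overlap. Epcam, the brightest of these markers, weighs most in this sum and gave 0.60 ± 0.18 (adjusted p = 0.0586). Krt19 went the other way, at −0.41 ± 0.20, and Krt7 and Spp1 gave 0.19 ± 0.22 and 0.24 ± 0.23 (adjusted p = 0.210, 0.595 and 0.511). Red cell sums were 596 to 690.0 and 545 to 646, overlapping.

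**Figure D3:**
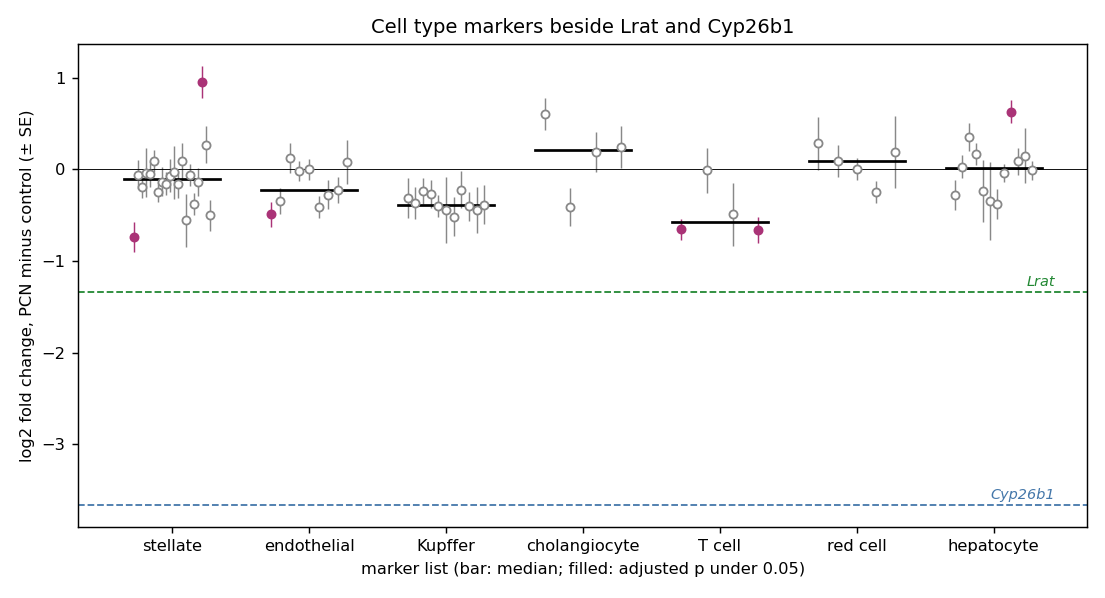
Log2 fold change (PCN minus control, ± SE, n = 3 per group) of tested markers of 7 liver cell types, with the list median as a bar, filled points past the test, and dashed lines at Lrat (−1.33) and Cyp26b1 (−3.66). All tested stellate markers lie between −0.74 and 0.96, above both lines. The stellate markers Lum and Gfap were not tested and are not shown.

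**Figure D4:**
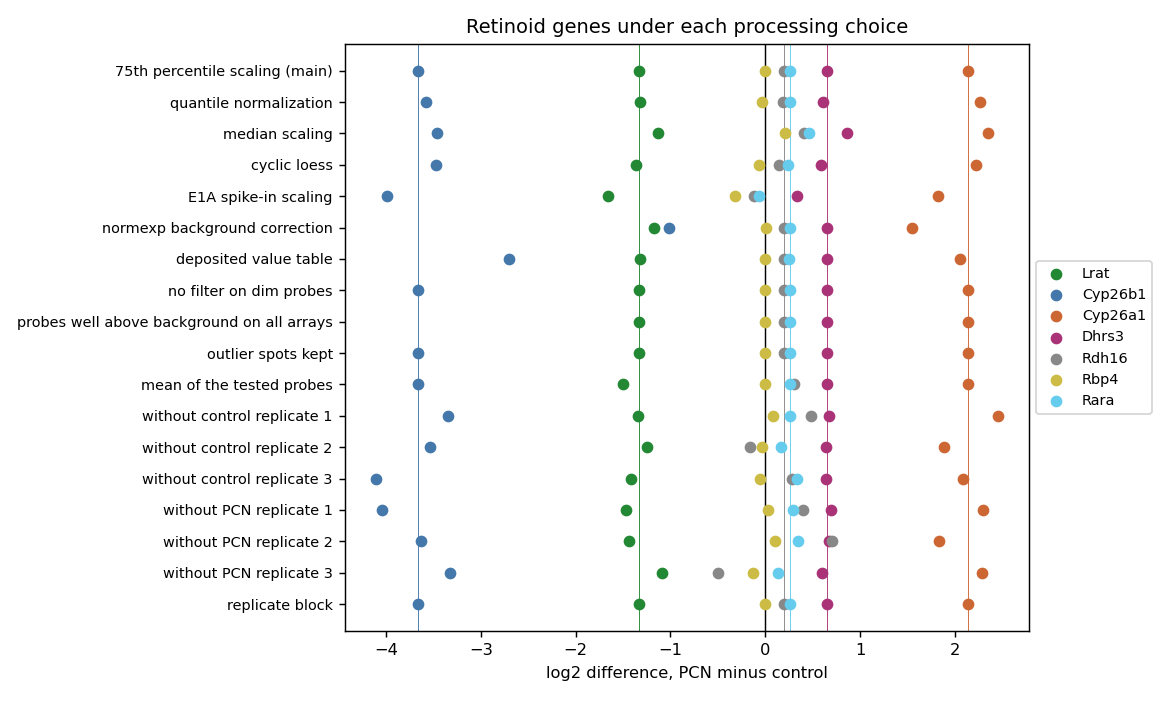
Log2 difference (PCN minus control) of the 7 retinoid genes under the main processing and 17 alternatives, each row a setting and each colour a gene, with thin lines at the main values. Lrat and Cyp26b1 stay left of 0 and Cyp26a1 and Dhrs3 right of 0 wherever they have a value, and Cyp26b1 moves to −1.01 with normexp.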

How the data were processed

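Per the file headers, Agilent Feature Extraction 10.7.3.1 produced the deposited intensity values, as processed signals that are background-subtracted within an array and not scaled between arrays. Quality marks of other kinds (well above background, outlier) come from the same deposited files. A further table deposited by the authors, by comparison with the scanner files, holds a linear ratio of processed signal to the array's 75th percentile, with no centring of genes. Outlier-marked spots were dropped before averaging each probe's spots. A probe counted as well above background on an array if at least as many of its spots were marked so as not. It was tested if so on all 3 arrays of a group. Transcript accessions named 18004 of 30367 probes, and the brightest tested probe stood for a gene. Groups were compared with limma 3.58.1 in R 4.3.3 (both groups in 1 fit, two-sided, Benjamini-Hochberg adjusted p under 0.05 over 16389 genes). The fitting code was tested on artificial arrays. The number of arrays limits the precision. Each group holds 3 rats, named biological replicates in the labels. The members and lists were chosen with earlier results of these data known. Genes named are the 8 described first, called genes of each list, a fixed set of pathway genes whatever their values, and the 5 most alike to Cyp26b1 and to Lrat. Of the replicate numbers, which the labels repeat in both groups, none correlated above 0.1 in its deviations, and they were not taken as pairs. Alternatives were quantile, median, cyclic loess and E1A spike-in scaling, normexp (offset 50, on median spot signals), the deposited ratio table (plus 0.01), other filters on dim probes, outlier spots kept, the mean of a gene's probes, each array left out, and the replicate number as a block. The authors' own test is not given in these sources. The array design names build rn4, so no probe coordinates are given. The values of 1 pathway gene are not reported here.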

Additional observations from a re-analysis of the deposited data

How the results depend on the processing

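Lrat and Cyp26b1 were lower and Cyp26a1 and Dhrs3 higher with PCN under all alternatives that gave a value. Cyp26b1 has no value where only probes well above background on all arrays were kept. Values that moved by more than the spread between replicates were those with median scaling (Rbp4 0.21, Rara 0.46, Dhrs3 0.86), with spike-in scaling (Lrat −1.66, Rbp4 −0.32, Rara −0.07, Dhrs3 0.33), with normexp (Cyp26b1 −1.01, Cyp26a1 1.55) and with the deposited table (Cyp26b1 −2.70). The called genes numbered 3263 over the whole array, 6394 with spike-in scaling (153 higher, 6241 lower) and 1967 without a filter on dim probes, where more genes were tested. With median scaling they were 2686 higher and 1866 lower, and with quantile normalization 1030 and 1995. The other retinoid pathway genes called numbered 28 with spike-in scaling and 5 with normexp. The stellate markers called numbered 8 with spike-in scaling (1 higher, 7 lower), 1 with median scaling (higher) and 1 with normexp (higher). With spike-in scaling the stellate median was −0.42, beside −0.39 for all tested genes. With 1 array left out, the counts ran from 2023 to 2592 over the array (2023, 2112 and 2048 without control replicate 1, 2 and 3), from 7 to 11 for the pathway and from 1 to 2 for stellate markers. With the replicate number as a block, 2067 genes were called over the array. Same-numbered arrays correlated at −0.10, −0.03 and −0.05 in their deviations, so the numbers show no pairing. Of the called pathway and marker genes named, the block ended the calls of Ppard, Cdh5, Lck and Hnf4a (adjusted p = 0.0564, 0.127, 0.0722 and 0.0641) and no other. The difference of Lck turned from −0.67 to 0.06 with normexp. Except where stated, the cause was not tested. Signals near background limit Cyp26b1 with PCN and the dimmer Lrat probe.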

Other observations

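Adh6, an alcohol dehydrogenase in the retinol list, was chosen for mention after its values were seen. It read 2.17, 1.07 and 1.97 in control rats 1 to 3 and 1.36, −8.09 and 1.14 in PCN rats 1 to 3, so that PCN replicate 2 stood far below the other 5 arrays and was not well above background. The group difference was −3.60 ± 2.41 (SE, adjusted p = 0.341, limma). On the same array Adh4 read −0.34 and Adh1c 6.03, the lowest of the 6 arrays for both genes, and Hsd17b6, which oxidises retinol and steroids, read 0.76, also the lowest. That array was not lowest for retinol enzymes alone. It was also the lowest for Retsat (3.44), Ttr and Rbp4, and for the hepatocyte markers Cps1 (−0.18), Ass1 (4.70), Tat (−0.61) and Ahsg (7.40). The same held for the hepatocyte markers Alb, Fga, Fgb, Serpina1 and Tf. Of the hepatocyte markers, only Apoa1, Apob and Hnf4a were not lowest on that array. These genes were named after their values were seen. Bco1, which cleaves beta-carotene to retinal, varied among controls, at −1.13, −3.52 and −3.93, and read −1.79, −0.96 and −1.74 with PCN (difference 1.37 ± 0.71, adjusted p = 0.226).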
